A study of Homo sapiens with 2 samples.

Results

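The genes described here encode subunits of the ATP-dependent chromatin remodelling complexes of the SWI/SNF, ISWI, CHD (with NuRD) and INO80 families. They were chosen by gene name from a fixed list of 46 symbols, and all 46 were found among the 60623 named genes of the count table. Each was measured by RNA-seq in HCT116, an established colorectal carcinoma line with epithelial features, labelled wild type. One culture, siKAT7, received an siRNA against KAT7 (also called HBO1), a histone lysine acetyltransferase of the MYST family, and the other, siControl, a non-specific siRNA, both by lipid transfection. There was 1 library per group. No difference below has a replicate check, no p-value is given, and every interval is a 95% interval that covers counting error only.

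Remodelling complexes use the energy of ATP to slide, space, eject or exchange nucleosomes, and so set which stretches of DNA other proteins can reach. SWI/SNF complexes (BAF, PBAF and non-canonical BAF) share an ATPase and part of their core and differ in other subunits. ISWI enzymes space nucleosomes, NuRD joins a CHD ATPase to histone deacetylases, and INO80 and its relatives move or exchange histone variants. Several SWI/SNF genes are recurrently mutated in human cancers, those of the colon among them.

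KAT7 itself had 287.22 expected counts in siKAT7 and 442.94 in siControl, a log2 ratio of -0.52 (-0.74 to -0.31), so it remained well detected in the library labelled siKAT7. Named genes summed to 23533186 expected counts in siKAT7 and 23450331 in siControl. Of 7 epithelial and colon markers, the keratins KRT8 and KRT18, EPCAM, CDH1 and CDX2 were well above 1 CPM (counts per 1000000 of the scaled library) in both libraries, VIL1 was below it and CDX1 was at 0. The blood cell marker PTPRC and the endothelial markers PECAM1 and CDH5 were at 0 in both libraries, and the endothelial marker VWF had 22 counts in siKAT7 and 20 in siControl. The summed level of the 3 endothelial markers was 0.970 CPM in siKAT7 and 0.822 CPM in siControl. The summed level of the 4 blood markers was 2.21 CPM in siKAT7 and 1.19 CPM in siControl. That of the 4 fibroblast markers was 31.6 CPM in siKAT7 and 31.7 CPM in siControl, nearly all of it COL1A1. In bulk RNA, fewer cells with a transcript and less of it per cell cannot be told apart.

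The rule of size used here called no remodeller gene. It did not call KAT7, the target of the siRNA, either, which was 1.44-fold lower. Counts were scaled by TMM (a trimmed mean of gene ratios), and the call of a higher or lower gene needed a ratio of siKAT7 over siControl of at least 1.5-fold and an interval that excluded 0. By this rule 0 of the 46 genes were higher and 0 were lower, against 3.92% and 3.91% of the 13217 genes whose mean reached 1 CPM. All 46 passed that filter on low values, and 39 of them reached a mean of 10 CPM, a level at which the 1.5-fold shares were not computed. Their log2 ratios ran from -0.55 for BRD9 to 0.43 for BCL7B, with a median of -0.060 against -0.0048 over all genes tested. The quartiles of the remodeller genes were -0.19 and 0.091, and those of all genes tested -0.19 and 0.19.

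Smaller differences beyond counting error were present in both directions. The interval lay above 0 for 7 of the 46 genes, or 15.2%, against 23% of all genes tested. It lay below 0 for 13, or 28.3%, against 22% of all genes tested. Among the 39 remodeller genes whose mean reached 10 CPM these shares were 17.9% above and 33.3% below, against 30% and 26.7% of all genes at that level. The 7 were BCL7B, CHD2, BCL7A, MTA1, BCL7C, ARID1A and MBD3. The 13 were BRD9, ACTL6A, RBBP4, INO80, PHF10, RBBP7, SS18, RUVBL1, SMARCA4, CHD4, MBD2, EP400 and GATAD2A.

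The split between higher and lower depended on the scaling. Scaling by total counts moved the median of all genes tested by -0.11 on the log2 scale and that of the 46 genes to -0.17. Under it 27 of the 46 intervals (58.7%) lay below 0 and 3 (6.52%) above, against 35.6% and 13.3% of all genes tested. The 3 above 0 were BCL7B, CHD2 and BCL7A. Those below 0 were all genes named above with an interval below 0 under TMM, joined by others whose TMM interval included 0. The others were SMARCB1, SMARCC1, SMARCC2, SMARCD2, SMARCD3, ARID1B, BRD7, SMARCA5, MTA2, GATAD2B, CHD1, CHD7, CHD9 and RUVBL2. By the 1.5-fold rule BRD9 and CHD9 were then lower, against 6.34% of all genes tested, and 0 of the 46 were higher, against 2.72%. Summed over the 46 genes, expected counts were 74441 in siKAT7 and 82051 in siControl, which are 0.316% of all named counts in siKAT7 and 0.350% in siControl.

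**Figure D1:**
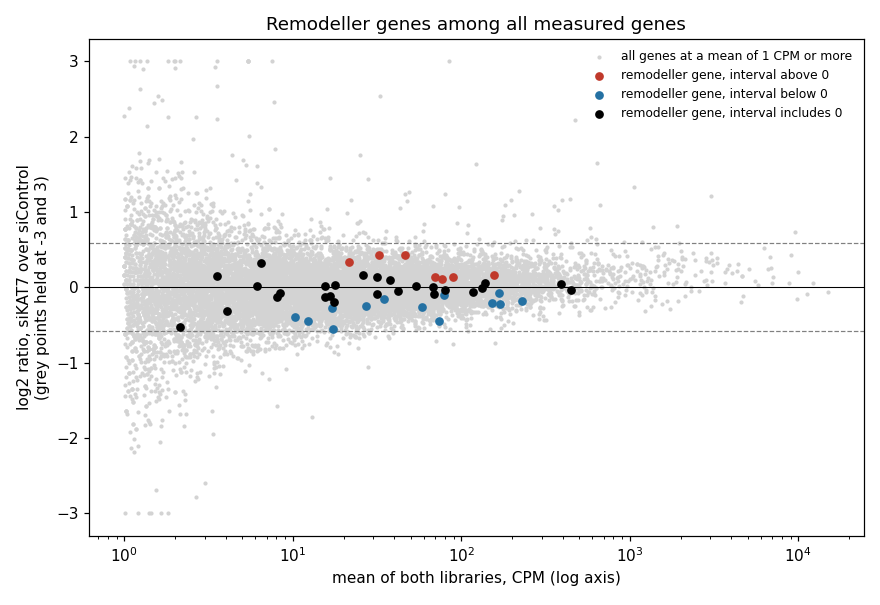
Each grey point is 1 of the 13217 genes whose mean reached 1 CPM, placed by the mean of both libraries (log axis) and by the log2 ratio of siKAT7 over siControl, and dashed lines mark 1.5-fold. The 46 remodeller genes are drawn larger, and all of them lie between the dashed lines, 7 with an interval above 0, 13 below and 26 that include 0.

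SWI/SNF contributed 23 of the 46 genes, with a median log2 ratio of -0.038 (-0.060 for all 46). Its ATPases hydrolyse ATP and are mutually exclusive in a complex. SMARCA4 (BRG1), on chromosome 19 at 10960825 to 11079426 of GRCh38, had 3208 expected counts in siKAT7 and 3973 in siControl. Its log2 ratio was -0.21 (-0.27 to -0.14), a level 0.867 times that of siControl. SMARCA2 (BRM), the paralogue of SMARCA4, had only 163 counts in siKAT7 and 140 in siControl, with a log2 ratio of 0.32 (-0.013 to 0.66). The interval of SMARCA4 lay below 0 and that of SMARCA2 included it.

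All 3 genes of the BCL7 family, small subunits shared by the SWI/SNF assemblies, had an interval above 0, as did 23% of all genes tested. BCL7B, on chromosome 7 at 73536356 to 73558002, had 1207 counts in siKAT7 and 962 in siControl, a log2 ratio of 0.43 (0.31 to 0.55). BCL7A had 547 in siKAT7 and 466 in siControl (0.33, 0.15 to 0.51). BCL7C had 1659 in siKAT7 and 1614 in siControl (0.14, 0.042 to 0.24). All 3 were under the 1.5-fold limit, and with total-count scaling the interval of BCL7C included 0, at -0.065 to 0.13.

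Among the other subunits not tied to a single assembly, ACTL6A and SS18 had intervals below 0. ACTL6A, an actin-related protein that is also a subunit of INO80 and related complexes, had 235 counts in siKAT7 and 345 in siControl, a log2 ratio of -0.45 (-0.70 to -0.21). SS18, the subunit fused to SSX proteins in synovial sarcoma, had 563 in siKAT7 and 717 in siControl (-0.25, -0.41 to -0.086). The 7 genes grouped here as structural core, not all of them present in every assembly, had intervals that included 0 with TMM scaling. Log2 ratios were -0.064 for SMARCB1, -0.0010 for SMARCC1, -0.086 for SMARCC2, 0.015 for SMARCD1, -0.038 for SMARCD2, -0.055 for SMARCD3 and 0.16 for SMARCE1. SMARCD2 was the best counted of these, with 9993 counts in siKAT7 and 11015 in siControl, and its interval ran only from -0.078 to 0.00070. With DESeq2 size factors that interval lay below 0 (-0.087 to -0.0089). With total-count scaling the intervals of SMARCB1, SMARCC1, SMARCC2, SMARCD2 and SMARCD3 lay below 0, from -0.29 to -0.0071 in their bounds. The deposited counts of SMARCC2 overlap on the opposite strand with the far more abundant MYL6, and no strand setting is stated for the counting. The 2 genes summed had a log2 ratio of 0.21 (0.18 to 0.24).

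Of the 3 subunits that define canonical BAF, 1 had an interval above 0 with TMM scaling, against 23% of all genes tested. ARID1A, the large DNA-binding subunit and a frequent target of mutation in cancer, had 2113 counts in siKAT7 and 2061 in siControl. Its log2 ratio was 0.14 (0.050 to 0.23), which with total-count scaling was 0.031 with an interval that included 0. ARID1B, its alternative in the complex, had 363 in siKAT7 and 420 in siControl (-0.11, -0.32 to 0.098), and with total-count scaling its interval lay below 0 (-0.22, -0.42 to -0.0094). DPF2, which reads histone acetylation through its paired PHD fingers, had 3202 in siKAT7 and 3302 in siControl (0.058, -0.013 to 0.13, and -0.049 with total-count scaling).

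In PBAF, the assembly that carries ARID2 and PBRM1, 3 of 4 genes had log2 ratios below 0, as did 50.7% of all genes tested. PHF10, a PHD finger subunit, had 348 counts in siKAT7 and 453 in siControl, a log2 ratio of -0.28 (-0.48 to -0.074). BRD7, a bromodomain subunit, had 373 in siKAT7 and 458 in siControl (-0.19, -0.40 to 0.0062). PBRM1, which carries a row of bromodomains, had 185 in siKAT7 and 209 in siControl (-0.074, -0.37 to 0.22). ARID2 was weakly counted, with 85 in siKAT7 and 82 in siControl (0.15, -0.30 to 0.61). Of the 4, only the interval of PHF10 excluded 0 with TMM scaling. That of BRD7 lay below 0 with DESeq2 size factors (-0.40 to -0.0034) and with total-count scaling (-0.50 to -0.10). BRD7 shares 3593 exonic bases with ADCY7 on the opposite strand, and both summed gave -0.17 (-0.33 to -0.013).

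BRD9, the bromodomain subunit that marks non-canonical BAF, had the lowest log2 ratio of the 46. Its gene model, on the reverse strand of chromosome 5, spans 850291 to 892824. It had 319.5 expected counts in siKAT7 and 502 in siControl, a log2 ratio of -0.55 (-0.75 to -0.34), or 0.685 times the siControl level. Of all genes tested, 5.25% had a lower log2 ratio. With total-count scaling the ratio was -0.65 (-0.86 to -0.45), past the 1.5-fold limit. BRD9 shares 222 exonic bases with ZDHHC11 on the same strand. Both summed gave -0.46 (-0.65 to -0.27) with TMM scaling, which is above the -0.53 of CHD9. BICRA, the scaffold of the same complex, had 406 counts in siKAT7 and 426 in siControl, with a log2 ratio of 0.033 (-0.17 to 0.23) and -0.074 with total-count scaling. The interval of BRD9 thus lay wholly below that of BICRA.

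**Figure D2:**
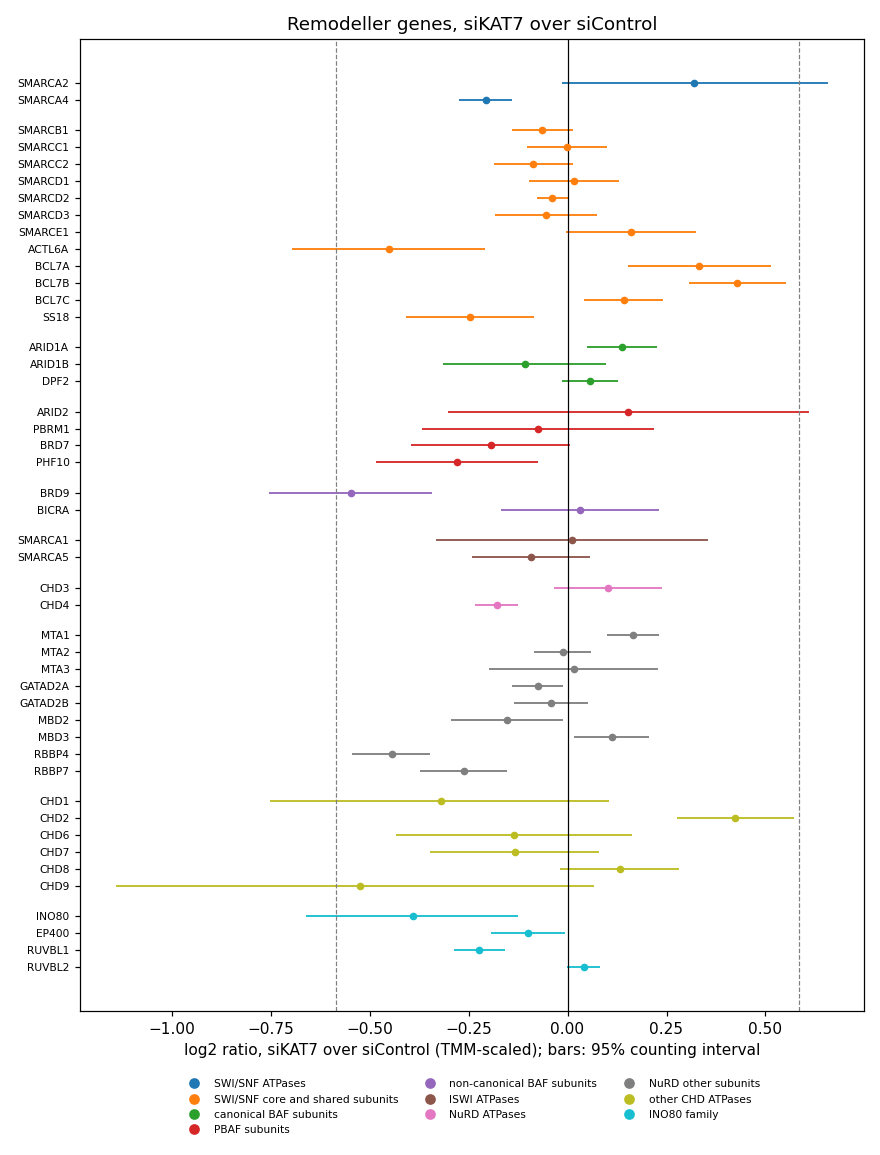
Points give the log2 ratio of siKAT7 over siControl for each of the 46 genes, grouped from top to bottom by complex, and bars give the 95% counting interval; dashed lines mark 1.5-fold and the solid line 0. BCL7B at 0.43 and CHD2 at 0.42 lie farthest to the right, and BRD9 at -0.55 and CHD9 at -0.53 farthest to the left, the last with a bar that crosses 0.

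For 40 of the 46 genes RefSeq gives a window before the transcription start (GRCh38.p14), of which the 250 bases upstream of the first listed start were read. In 5 genes with 1 listed start this window held no exon annotated by GENCODE 29, and in 3 of these, PHF10, MBD3 and ARID1A, the counting interval also excluded 0. Their windows are shown because they give the sequence before the start of 1 gene with a negative and 2 genes with a positive log2 ratio. They lie at chr6:169724501-169724750 (reverse strand), chr19:1592866-1593115 (reverse strand) and chr1:26695765-26696014 (forward strand), and are written 5′ to 3′ in the direction of transcription. In GENCODE 29 the windows of PHF10 and ARID1A lie within the span of their gene, between exons, and that of MBD3 lies before its gene. Capitals mark matches, on either strand, to the 7 motifs spelled out after the sequences.
PHF10: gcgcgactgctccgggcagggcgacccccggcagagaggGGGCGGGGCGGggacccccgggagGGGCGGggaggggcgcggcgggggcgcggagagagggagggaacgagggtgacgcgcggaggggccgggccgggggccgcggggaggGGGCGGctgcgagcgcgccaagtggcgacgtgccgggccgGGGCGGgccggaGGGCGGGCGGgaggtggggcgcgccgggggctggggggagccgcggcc
MBD3: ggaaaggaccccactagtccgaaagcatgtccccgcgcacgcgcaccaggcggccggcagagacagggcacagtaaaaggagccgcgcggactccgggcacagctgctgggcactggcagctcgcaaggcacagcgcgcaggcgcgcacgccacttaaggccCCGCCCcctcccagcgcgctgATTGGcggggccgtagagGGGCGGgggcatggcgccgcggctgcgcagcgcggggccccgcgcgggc
ARID1A: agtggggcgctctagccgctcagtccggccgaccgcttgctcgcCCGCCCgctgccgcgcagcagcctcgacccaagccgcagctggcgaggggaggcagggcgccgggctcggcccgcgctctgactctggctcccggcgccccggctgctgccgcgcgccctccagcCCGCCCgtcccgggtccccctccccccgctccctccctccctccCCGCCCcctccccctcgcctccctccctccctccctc
All 3 windows are rich in G and C, at 86.4% for PHF10, 74.8% for MBD3 and 80.4% for ARID1A, against a median of 68.2% over the 40 remodeller genes and 58% over 27305 windows of all genes. GC boxes were found 7 times in PHF10, overlapping matches included, 2 times in MBD3 and 3 times in ARID1A. Over the 40 genes, 72.5% held a GC box (letters GGGCGG), against 42.3% of all windows. A CCAAT box (the letters of its name) was found in 40% of the 40 genes against 33% of all windows, an ETS site (CCGGAAG) in 12.5% against 8.82%, an E-box (CACGTG) in 7.5% against 6.49% and a TATA box (TATAAA) in 5% against 11.1%. An E2F site (TTTCGCGC) was found in 0 of the 40 genes, against 0.469% of all windows, and a cyclic AMP response element (TGACGTCA) in 0, against 1.77%. These are matches of letters in base-rich windows and no measurement of binding.

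The ISWI ATPases did not differ beyond counting error with TMM scaling. SMARCA5 (SNF2H), the catalytic subunit of most ISWI complexes in dividing cells, had 690.2 expected counts in siKAT7 and 789 in siControl, a log2 ratio of -0.091 (-0.24 to 0.058). SMARCA1 (SNF2L), best known from neural tissue, had 139 in siKAT7 and 148 in siControl (0.011, -0.33 to 0.36, and -0.095 with total-count scaling). With total-count scaling SMARCA5 was at -0.20 and its interval, -0.35 to -0.049, excluded 0.

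The CHD enzymes carry paired chromodomains beside their ATPase and ranged from -0.53 to 0.42 over 8 genes. CHD2, which is linked to deposition of the histone variant H3.3, had 844 counts in siKAT7 and 675 in siControl, a log2 ratio of 0.42 (0.28 to 0.57). It lies on chromosome 15 at 92900189 to 93028005, and its interval also lay above 0 with total-count scaling (0.17 to 0.47). CHD1, the closest relative of CHD2, binds trimethylated lysine 4 of histone H3. It had 82 counts in siKAT7 and 110 in siControl, a log2 ratio of -0.32 (-0.75 to 0.10). CHD2 and CHD1 thus lay on opposite sides of 0, with intervals that did not overlap.

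The remaining CHD genes outside NuRD had intervals that included 0 with TMM scaling. CHD8, which binds beta-catenin, had 745 in siKAT7 and 730 in siControl (log2 ratio 0.13, -0.018 to 0.28). CHD7, the gene mutated in CHARGE syndrome, had 338 in siKAT7 and 398 in siControl (-0.13, -0.35 to 0.079). CHD6 had 174 in siKAT7 and 205 in siControl (-0.13, -0.43 to 0.16). CHD9 had the fewest counts of the 46, 40 in siKAT7 and 62 in siControl, and so the widest interval (-0.53, -1.14 to 0.066).

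NuRD contributed 11 genes with a median log2 ratio of -0.042. Its ATPase CHD4 (Mi-2 beta) had 4843 expected counts in siKAT7 and 5886 in siControl, a log2 ratio of -0.18 (-0.23 to -0.12). CHD3 (Mi-2 alpha), which replaces CHD4 in part of the complexes, had 890 in each library, a log2 ratio of 0.10 (-0.034 to 0.24) and -0.0051 with total-count scaling. CHD4 shares 5964 exonic bases with the gene model AC006064.6 on the same strand, which had 291 counts in siKAT7 and 223 in siControl (0.49, 0.23 to 0.74). Both summed gave -0.15 (-0.20 to -0.095), and CHD4 supplies most of that sum.

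The histone-binding WD40 proteins RBBP4 and RBBP7, also subunits of other chromatin complexes such as PRC2, were both negative. RBBP4, on chromosome 1 at 32651142 to 32686211, had 1413 counts in siKAT7 and 2064 in siControl, a log2 ratio of -0.44 (-0.54 to -0.35). This was the negative interval farthest from 0 among the 46. RBBP7, on chromosome X, had 1198 in siKAT7 and 1542 in siControl (-0.26, -0.37 to -0.15). In the annotation RBBP4 has 6 pseudogene entries named after it, and all were at 0 counts in both libraries, unlike the copy of EP400 described with that gene.

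The other NuRD subunits differed less. MTA1, a scaffold that recruits the deacetylases, had 3771 counts in siKAT7 and 3608 in siControl, a log2 ratio of 0.17 (0.10 to 0.23). Its paralogues MTA2 and MTA3 were at -0.012 (-0.084 to 0.060) and 0.016 (-0.20 to 0.23). MBD3, a methyl-CpG-binding domain protein, had 1821 in siKAT7 and 1809 in siControl (0.11, 0.017 to 0.21), and MBD2, which binds methylated CpG, had 747 in siKAT7 and 891 in siControl (-0.15, -0.29 to -0.010). The zinc finger subunits GATAD2A and GATAD2B, which bridge MBD proteins and CHD4, were at -0.076 (-0.14 to -0.012) and -0.042 (-0.13 to 0.051). With total-count scaling the intervals of MTA1 (-0.0076 to 0.12) and MBD3 (-0.090 to 0.099) included 0, as did that of MBD3 summed with AC005943.1, which shares 767 exonic bases on the same strand (0.090, -0.0040 to 0.18), and MTA3 was at -0.092. The deacetylases of NuRD, HDAC1 and HDAC2, had log2 ratios of 0.045 (-0.025 to 0.12) and -0.13 (-0.29 to 0.028).

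In the INO80 family, 3 of 4 genes had intervals below 0. Of all genes tested 22% did, and 26.7% of those with a mean of at least 10 CPM. INO80, the ATPase of the complex of that name, had 201 counts in siKAT7 and 283 in siControl, a log2 ratio of -0.39 (-0.66 to -0.13). EP400, the ATPase associated with TIP60 that exchanges H2A variants, had 1730.4 in siKAT7 and 1990.2 in siControl (-0.10, -0.19 to -0.0063). Its counts are split, and its pseudogene EP400P1 had 213 counts in siKAT7 and 280.1 in siControl (-0.29, -0.56 to -0.030), so the value of EP400 is uncertain. RUVBL1, a AAA+ ATPase that with RUVBL2 forms a ring shared by INO80, SRCAP and TIP60 complexes, had 3534 in siKAT7 and 4427 in siControl (-0.22, -0.29 to -0.16). RUVBL2 had 8986 in siKAT7 and 9372 in siControl (0.041, -0.00060 to 0.083). With total-count scaling the interval of RUVBL2 lay below 0 (-0.066, -0.11 to -0.024). The subunits of this ring thus had intervals that did not overlap. RUVBL1 shares 344 exonic bases with SEC61A1 and 370 with EEFSEC, both on the opposite strand. SEC61A1 had 3874 counts in siKAT7 and 5031 in siControl, and EEFSEC 814 in siKAT7 and 879 in siControl. RUVBL1 summed with both gave -0.23 (-0.27 to -0.19). How much of the RUVBL1 count comes from these neighbours was not tested.

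The balance between paralogues or alternative subunits was compared in 30 pairs by the ratio of their counts, which needs no scaling between libraries. No share over other pairs of genes was computed, so the counts of pairs given here are not read as a trait of the remodeller genes. For single genes, the counting interval lay above 0 in 23% and below 0 in 22% of all genes tested. These shares are no background for pairs, since a balance joins the counts of 2 genes. Several genes also occur in more than 1 pair, so the pairs are not independent. The counting interval of the balance excluded 1 in 14 pairs. The balance differed by at least 1.5-fold in 2 of these. The ratio of CHD1 to CHD2 counts was 0.0971 in siKAT7 and 0.163 in siControl, which is 0.596 times as high (0.434 to 0.816). The ratio of CHD8 to CHD9 was 18.6 in siKAT7 and 11.8 in siControl, 1.58 times as high with a wide interval of 1.03 to 2.45. Both rest on a weakly counted partner.

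Other pairs had smaller differences in balance. The ratio of SMARCA2 to SMARCA4 was 0.0508 in siKAT7 and 0.0352 in siControl, 1.44 times as high (1.14 to 1.83), with SMARCA4 far the more abundant in both libraries. RUVBL1 to RUVBL2 was 0.393 in siKAT7 and 0.472 in siControl, 0.833 times as high (0.789 to 0.878), subject to the overlaps of RUVBL1 described above. CHD3 to CHD4 was 0.184 in siKAT7 and 0.151 in siControl, 1.22 times as high (1.10 to 1.35). Each of these 3 shifts had an interval that excluded 1 and stayed under 1.5-fold.

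The balance also differed between some subunits of alternative assemblies. BRD7 to BRD9, bromodomain subunits of PBAF and non-canonical BAF, was 1.17 in siKAT7 and 0.912 in siControl, 1.28 times as high (1.05 to 1.56). DPF2 to PHF10, PHD finger subunits of canonical BAF and PBAF, was 9.20 in siKAT7 and 7.29 in siControl, 1.26 times as high (1.09 to 1.47). ARID1A to ARID1B was 5.82 in siKAT7 and 4.91 in siControl, 1.19 times as high (1.015 to 1.39). MBD2 to MBD3 was 0.410 in siKAT7 and 0.492 in siControl, 0.833 times as high (0.740 to 0.938). The SMARCC and SMARCD pairs and GATAD2A to GATAD2B had intervals that included 1, between 0.903 and 1.18 in their bounds.

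**Figure D3:**
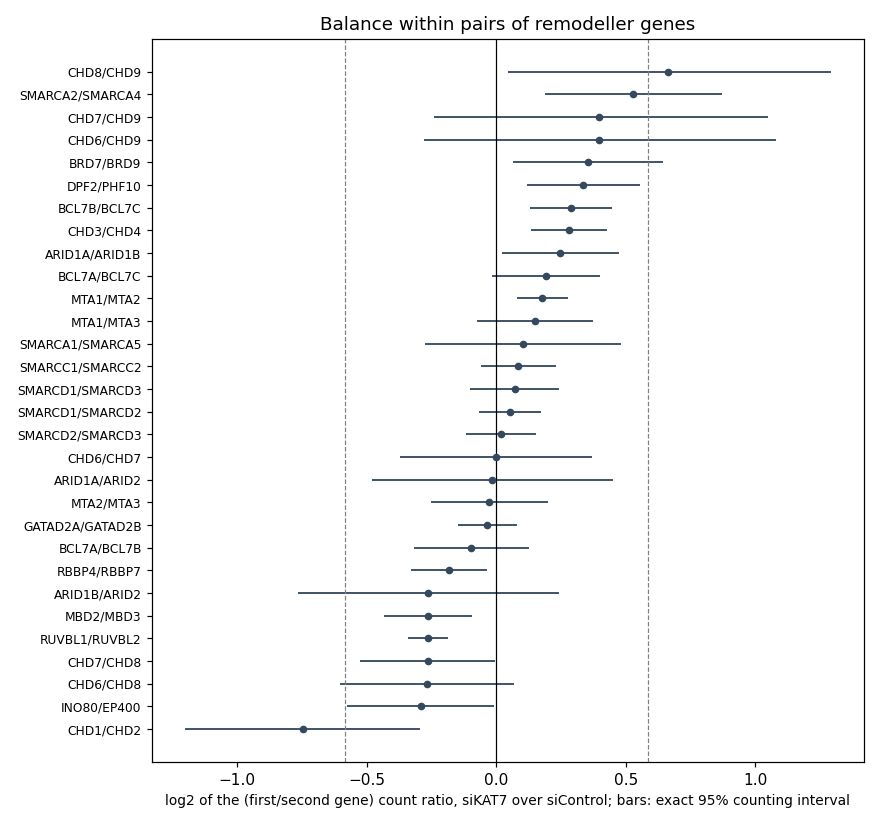
Each point is the log2 of the count ratio of the first to the second gene of a pair in siKAT7 over the same in siControl, sorted from high to low for 30 pairs, with exact 95% counting intervals; dashed lines mark 1.5-fold. CHD1/CHD2 lies at -0.75 and CHD8/CHD9 at 0.66, and the other points lie between the dashed lines.

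Levels per length, as TPM within each library, spanned more than 3 orders of magnitude and kept nearly the same order in both libraries. TPM values are read within a library, and their differences between libraries do not replace the scaled log2 ratios above. ARID1A, for example, had a lower TPM in siKAT7 than in siControl but a TMM log2 ratio of 0.14. RUVBL2 was the most abundant of the 46, at 314 TPM in siKAT7 and 352 TPM in siControl. It was followed by SMARCD2 (219 TPM in siKAT7, 259 TPM in siControl), RUVBL1 (100.4 TPM in siKAT7, 135 TPM in siControl) and SMARCB1 (81.5 TPM in siKAT7, 98.4 TPM in siControl). CHD9 was the least abundant, at 0.190 TPM in siKAT7 and 0.317 TPM in siControl, with ARID2 and CHD1 next above it in both libraries. The median gene of the 46 stood at 9.15 TPM in siKAT7 and 12.3 TPM in siControl, against 6.16 TPM in siKAT7 and 7.22 TPM in siControl over all genes tested.

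In several families 1 paralogue led. Among the SWI/SNF ATPases SMARCA4 stood at 31.4 TPM in siKAT7 and 41.8 TPM in siControl. SMARCA2 stood at 1.498 TPM in siKAT7 and 1.39 TPM in siControl. Among the NuRD ATPases CHD4 stood at 41.5 TPM in siKAT7 and 54.3 TPM in siControl. CHD3 stood at 6.52 TPM in siKAT7 and 7.02 TPM in siControl. ARID1A stood at 13.3 TPM in siKAT7 and 13.9 TPM in siControl, above its alternatives in the complexes. ARID1B stood at 1.81 TPM in siKAT7 and 2.25 TPM in siControl, and ARID2 at 0.533 TPM in siKAT7 and 0.554 TPM in siControl. BCL7B and BCL7C were close to each other, at 66.1 and 55.8 TPM in siKAT7 and at 56.7 and 58.4 TPM in siControl, so that their order differed between the libraries.

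The rank by level moved by at most 2 places for 42 of the 46 genes. BRD9 moved most, ranking 31 in siKAT7 and 26 in siControl. RBBP4 ranked 22 in siKAT7 and 19 in siControl, INO80 40 in siKAT7 and 37 in siControl, and CHD2 33 in siKAT7 and 36 in siControl. Log2 ratios of the 46 genes were nearly unrelated to gene model length (Spearman rho -0.045 over 46 genes that share both libraries), whereas over the 13217 genes tested rho was -0.20. Genes are not independent replicates, and these coefficients are descriptions.

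**Figure D4:**
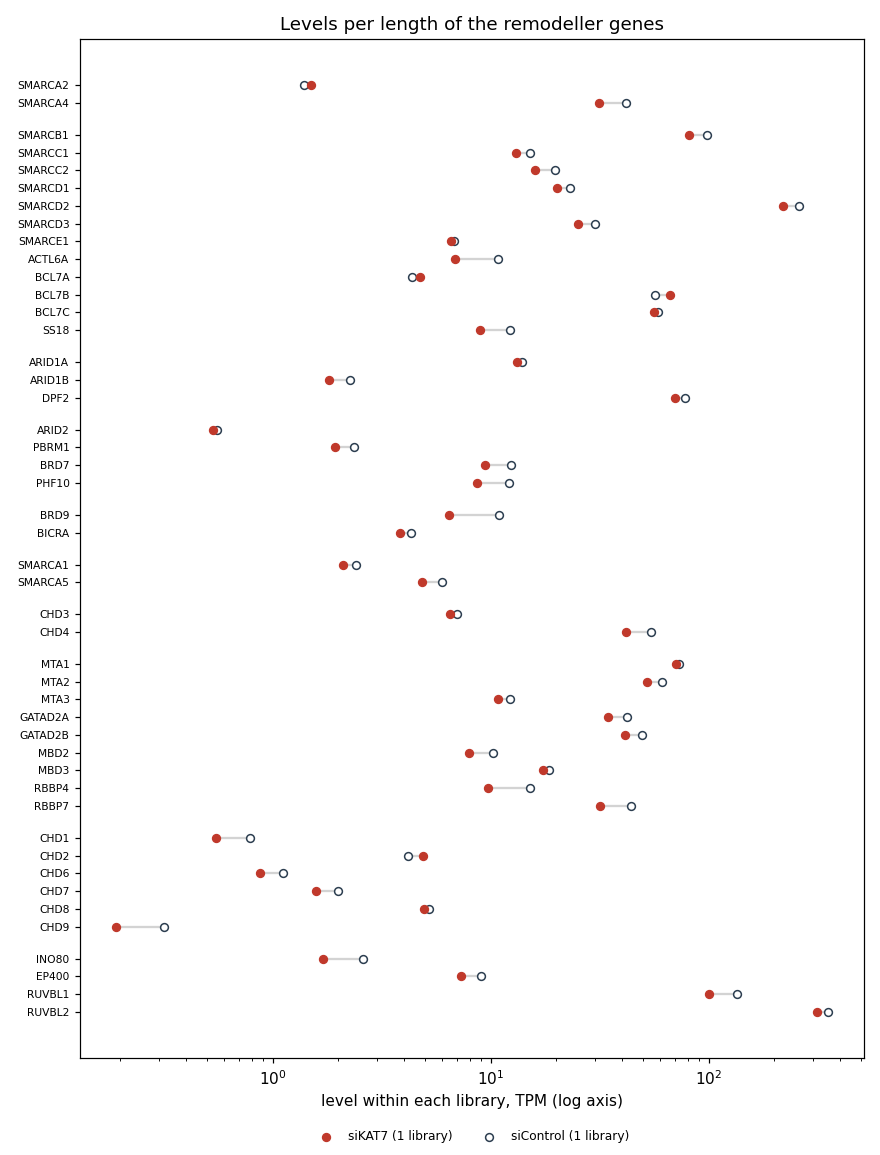
Levels of the 46 genes in TPM (log axis), with filled points for siKAT7 and open points for siControl, 1 library each, grouped from top to bottom by complex. RUVBL2 (314 TPM in siKAT7, 352 TPM in siControl) and SMARCD2 (219 TPM in siKAT7, 259 TPM in siControl) lie at the high end and CHD9 (0.190 TPM in siKAT7, 0.317 TPM in siControl) at the low end in both libraries. TPM values are read within a library, since their common scale moves with abundant short RNAs.

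Of 57 further genes of these and related remodellers, 54 passed the filter on low values, with a median log2 ratio of -0.047. By the 1.5-fold rule 1 was higher and 2 were lower, against the 3.92% and 3.91% of all genes tested given above. ING3, a TIP60 subunit that reads methylated histone H3, was higher on few counts, 56 in siKAT7 and 37 in siControl (log2 ratio 0.69, 0.075 to 1.34). With total-count scaling its interval included 0 (0.59, -0.032 to 1.23). CHD1L (ALC1), a remodeller recruited by poly(ADP-ribose), was 1.70-fold lower, with 196 counts in siKAT7 and 358 in siControl (-0.77, -1.03 to -0.51). BTAF1, which removes the TATA-binding protein from DNA, was also 1.70-fold lower, with 96 in siKAT7 and 176 in siControl (-0.77, -1.15 to -0.41).

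By group, the 11 measured SNF2 ATPases outside the main families had a median of -0.29, with 9 below 0, 2 above it, and both of the lower genes among them. Of all genes tested, 50.7% lay below 0. The counting interval lay below 0 for 4 of the 11 and above 0 for 1, against 22% and 23% of all genes tested. ISWI partners had a median of 0.20 over 9 genes, with 5 above 0 and 4 below. INO80 partners had 0.042 over 11, SRCAP and TIP60 partners -0.064 over 14, the other NuRD subunits -0.15 over 4 and the other SWI/SNF subunits 0.12 over 5. With total-count scaling these medians were -0.40 for the SNF2 ATPases, 0.093 for ISWI partners, -0.065 for INO80 partners, -0.17 for SRCAP and TIP60 partners, -0.25 for the other NuRD subunits and 0.011 for the other SWI/SNF subunits. ACTL6B, the neuronal counterpart of ACTL6A, was at 0 counts in both libraries.

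In the authors' deposited table, whose log2 folds lie close to the total-count values, 0 of the 46 genes carried the mark of significance, against 1.32% of the 23510 genes with a test there. The mark does not follow the deposited adjusted p-values alone. RBBP4, CHD4, RUVBL1 and SMARCA4 had the smallest of these values among the 46 and carried no mark. A missing mark therefore does not mean that the authors' test found no difference between the libraries. The authors' deposited table gives log2 folds from -0.66 for BRD9 to 0.32 for BCL7B, with 35 of the 46 below 0. With total-count scaling 35 of the 46 were likewise below 0, as were 8708 of the 13217 genes tested.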

How the data were processed

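Total RNA of 2 HCT116 cultures was sequenced, 1 library per group. The deposited table gives expected counts per gene, estimated with RSEM 1.3.3 on GRCh38.p13 per the submitters' processing notes; the sources used here give no aligner, annotation release or strand setting. The deposited file repeats both count columns with 0 differing cells, so each was used once. The 331 unnamed loci, with 1.67% of counts in siKAT7 and 1.11% in siControl, were left out. A further deposited table holds the authors' fold (ratio), log2 fold and p-values between the 2 libraries; its p-values compare libraries, not conditions, and none is printed.

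Expected counts were rounded, and TMM factors (0.964 for siKAT7, 1.04 for siControl) came from edgeR 4.0.16 in R 4.3.3. Log2 ratios used a prior count of 0.5. Intervals were exact Clopper-Pearson (genes) or exact conditional odds ratio intervals (pairs, SciPy 1.17.1). The labels name no molecular identifiers, and PCR copies are not independent molecules, so intervals cover counting error only. Of the 46 genes, 25 had whole counts in both libraries; reads of the other 21 were divided among gene models by the authors' estimation. TPM used the deposited gene model length. Coordinates are from GENCODE 29 on GRCh38, and promoter windows from RefSeq. The gene intervals, the calls and the pair balances were tested on counts simulated with counting error only. That is the error the intervals assume, so the simulation says nothing about other noise between libraries. Members and gene lists were chosen with earlier results of these data known. All 46 members could be named, and of the further genes those past the 1.5-fold rule, up to 4 in each direction; HDAC1, HDAC2 and ACTL6B were named for their roles after their values were seen. The alternatives were total-count scaling, DESeq2 1.42.0 size factors, a prior count of 5, a threshold of 2-fold, other filters on low counts, the authors' folds, and sums with overlapping genes.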

Additional observations from a re-analysis of the deposited data

How the results depend on the processing

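Of the alternatives run, a 2-fold threshold, a filter of 10 CPM and no filter could not add calls to counts of 0, since all 46 genes had passed the filter. With total-count scaling 0 remodeller genes were higher and 2 were lower (BRD9 and CHD9); with DESeq2 size factors or a prior count of 5 both counts were 0. The median log2 ratio of -0.060 was -0.17 with total-count scaling. It was -0.012 over the 25 genes with whole counts, an alternative chosen after seeing the data, as were the sums with overlapping genes. With DESeq2 size factors, a prior count of 5 or other filters it lay between -0.069 and -0.055. Of the pairs, 0 differed in balance by 2-fold, against 2 at 1.5-fold. Among the further remodeller genes, 0 were higher (ING3 lost its call) and 3 lower with total-count scaling. With total-count scaling, and likewise with the authors' folds, 18 of the 46 genes had a log2 ratio outside their own TMM interval, all of them lower, as this scaling moves every gene down by about 0.11. It turned 7 positive values negative, those of CHD3, DPF2, RUVBL2, BICRA, MTA3, SMARCD1 and SMARCA1. Sums with genes overlapping on the opposite strand moved SMARCC2 and PBRM1 outside their intervals, to 0.21 and 0.24. No replicate could be left out, and depth limits CHD9, ARID2, CHD1, SMARCA1 and SMARCA2 most. No paired analysis was possible because each group has 1 library.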

Other observations

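Several remodeller genes have a neighbour on the opposite strand whose exons overlap theirs, and without a stated strand setting reads in the shared bases cannot be assigned with certainty. The neighbours described here were chosen after their values were seen. BRD9 shares 182 exonic bases with TRIP13, a gene of the spindle checkpoint, which had 375 counts in siKAT7 and 527 in siControl, a log2 ratio of -0.39 (-0.58 to -0.20). Both summed gave -0.47 (-0.61 to -0.33), against -0.55 for BRD9 alone. PHF10 shares 184 bases with C6orf120, which had 190 counts in siKAT7 and 305 in siControl (-0.58, -0.85 to -0.31), and both summed gave -0.39 (-0.55 to -0.23).

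The direction was not shared in every such pair. PBRM1 shares 146 bases with SMIM4, which had 267 counts in siKAT7 and 203 in siControl (log2 ratio 0.50, 0.23 to 0.77), whereas PBRM1 was at -0.074 (-0.37 to 0.22), and both summed gave 0.24 (0.040 to 0.43). By contrast, ACTL6A and its neighbour MRPL47 both had negative log2 ratios. ACTL6A (-0.45, -0.70 to -0.21) shares 124 bases with MRPL47, a mitochondrial ribosomal protein gene. MRPL47 had 169 counts in siKAT7 and 213 in siControl (-0.23, -0.53 to 0.066). ACTL6A summed with the genes that overlap it on the opposite strand gave -0.37 (-0.56 to -0.18). How much of any member's count comes from such a neighbour was not tested.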
